A study of Caenorhabditis elegans with 4 samples.

Results

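The nspa, nspb, nspc and nspe genes are groups A, B, C and E of the nematode-specific peptide families, small predicted peptides found in C. elegans. They were chosen by name, as every row of the deposited gene table called nspa, nspb, nspc or nspe with a number, which gave 52 of 47115 rows. These were 12 nspa, 12 nspb, 20 nspc and 8 nspe rows, and the 12 rows of group D, nspd, were kept apart as a family to compare with. No measured value enters the naming rule, but the families were picked with the eggd-1 comparison of these same libraries already known. The values of that comparison are therefore given as a description, and the counts of members that passed a threshold are not independent support for a change in the families.

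Whole adult C. elegans grown from synchronized L1 larvae were profiled by strand-specific RNA sequencing after removal of ribosomal RNA. There were 2 libraries of each genotype. The control is labelled pgl-1::RFP, in which the germ granule protein PGL-1 carries a red fluorescent tag, and the other genotype is an eggd-1 null mutant, which lacks a protein that holds germ granules at the nuclear envelope. The label of the mutant names only eggd-1, so that loss of eggd-1 and absence of the tag cannot be told apart from the labels. Each library came from a large pool of worms of all tissues, and the labels number the libraries of a group as sequencing replicates, while the methods of the study call them biological replicates. Neither says whether separate cultures were grown, and the p-values measure the spread between these libraries. Totals ranged from 17603513 to 30812591 counts. A gene listed at 0 may hold up to 3 counts, a limit for counting error only. The eggd-1 gene itself, WBGene00008005, was counted 2074 and 3177 times in the control and 6 and 3 times in the mutant, as the labels imply.

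Nematode-specific peptide genes encode short proteins without a close relative outside nematodes, and for the groups described here no molecular role is assumed. Group D differs in that its peptides are known from C. elegans sperm. Families of this kind arise by local duplication, which leaves tandem and inverted copies whose messenger RNAs may differ at few positions. A short read from one copy can then fit the others as well, and the counting method decides where it is placed. The X chromosome of C. elegans, which carries the nspc genes, is largely silent in germ cells that make sperm, and genes with sperm functions are scarce on it.

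The members were small genes gathered in a few places. In the Ensembl annotation of the WBcel235 genome all 52 had a position, and they formed 15 groups when members of 1 family less than 20 kb apart were joined, with 44 members in the 7 groups of 4 or more. The 12 nspa models were single exons of 81 to 105 bases, and the 10 coding ones each encoded 34 residues. The nspb models had 2 exons and encoded 79 to 86 residues, the 18 coding nspc models 101 or 103 residues, and the nspe models 71 to 75 residues. The annotated nspa models hold no untranslated sequence and are shorter than the 200 nucleotides above which RNA was enriched on the column. What the column step did to transcripts of this size was not tested.

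The nspc genes lay on the X chromosome in 3 clusters. The first, nspc-1 to nspc-7, spanned 7.61 kb from 8534672 to 8542283. The second, nspc-8 to nspc-15, spanned 18.9 kb from 12342289 to 12361159 and included the pseudogenes nspc-8 and nspc-11. The third, nspc-16 to nspc-20, spanned 6.63 kb from 14523575 to 14530207. Neighbouring members mostly faced opposite strands, with 5 of 6 adjacent pairs in the first cluster, 6 of 7 in the second and 3 of 4 in the third. The coding members of the first and second clusters encoded 101 residues each and those of the third 103, so the third cluster also stood apart by protein length.

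The other families were spread differently. On chromosome V, 7 nspa genes lay within 12.8 kb, from 14878348 to 14891186. Their arrangement repeated at a fixed distance and is called the repeat below, although sequence identity was not computed. The starts of nspa-5 and nspa-4, of nspa-3 and nspa-1, and of nspa-7 and nspa-6 were each 6368 bases apart on the same strand. The nspb genes were divided between 5 members on chromosome IV from 6590734 to 6599610, 4 on chromosome II from 14578313 to 14588262, and the single genes nspb-6 (chromosome IV), nspb-11 (chromosome II) and nspb-12 (chromosome III). All 8 nspe genes lay on chromosome II between 12612518 and 12629384. The deposited table assigns 7 of the 12 nspa genes to its Spermatogenic class, of which nspa-1 and nspa-8 are also listed as targets of the sperm Argonautes ALG-3 and ALG-4. It gives no class to any nspb, nspc or nspe gene.

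Because copies of such genes can be alike, the first question was how far the count of a single member can be trusted. The authors divided a read with several places equally among them, which leaves fractional counts. Fractional values, those more than 0.001 from a whole number, occurred in 38 of the 47 members with a count (80.9%), against 12.8% of all rows with a count. The families differed in this. All 19 nspc members with a count and 9 of 10 nspa members had fractional values, compared with 8 of 12 nspb, 2 of 6 nspe and 4 of 10 nspd members. Taken value by value, 98.7% of the nspc counts above 0 and 94.3% of the nspa counts were fractional, but 50% of the nspb and 16.7% of the nspe counts.

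Some members could hardly be told apart at all. The counts of nspc-2 were 188.31, 225.56, 41.65 and 30.32 in control replicates 1 and 2 and eggd-1 replicates 1 and 2, and those of nspc-6 were 188.98, 224.56, 41.65 and 30.32. The 2 genes thus differed by at most 1 count in every library, the only such pair among members with more than 40 counts summed over the pair. The reference name table gives the identifier of nspc-6 the symbol nspc-2, and in the same way it names nspa-3 as nspa-1, nspa-4 as nspa-5 and nspa-6 as nspa-7. The nspa pairs are those that lie 6368 bases apart. Members of these pairs were not counted alike. Of the nspa counts of a library, nspa-1 took 31.8% to 38.2% and nspa-3 took 23.3% to 28.6%. By comparison nspa-5 took 12.1% to 13.8% and nspa-4 only 2.09% to 2.66%. A read that fits more than 10 places was discarded by the authors' aligner settings, so a family with many like copies may be undercounted to an extent that was not tested. Sums over a family or cluster do not depend on how reads were divided within it and are given first below.

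Summed over its members and normalized with DESeq2 size factors, nspc had the largest sum in every library. The smallest sum was that of nspb in the control and that of nspe in eggd-1. These sums depend on the number and length of the genes. Per kilobase of annotated exon, the control median was 487 for nspa and 528 for nspc, over members averaging at least 10 normalized counts. The nspa sum was 414 and 424 normalized counts in the control against 1128 and 927 in the eggd-1 libraries. The nspb sum was 41.9 and 38.7 in the control and 445 and 280 in eggd-1. For both families the eggd-1 libraries lay above the control libraries, by 2.45-fold for nspa (log2 ratio 1.29, spread between replicates 0.142 as the pooled SD of the log2 sums, n = 2 per group) and 9.0-fold for nspb (3.17, spread 0.338). The eggd-1 replicates themselves lay apart, replicate 1 being higher than replicate 2 in both families. The nspc sum was 3143 and 2887 in the control and 4031 and 3315 in eggd-1, which is 1.22-fold higher (log2 ratio 0.28, spread 0.154). The nspe sum was 179 and 127 in the control and 152 and 192 in eggd-1, so that its groups overlapped (log2 ratio 0.17, spread 0.302). The small difference of the nspc sum was made of opposite ones, as the clusters show.

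**Figure D1:**
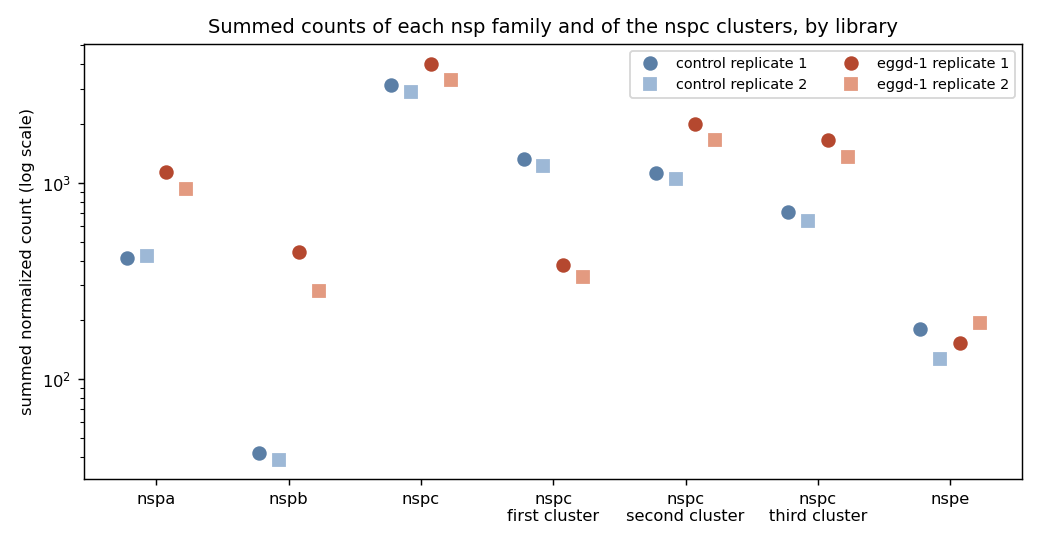
Summed normalized counts on a log scale for each family and for each nspc cluster, with 1 point per library. The first nspc cluster is lower in eggd-1, the second and the third are higher, and the nspb sum is 41.9 and 38.7 in the control and 445 and 280 in eggd-1.

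The first nspc cluster was lower in eggd-1 while the second and the third were higher. The sum over nspc-1 to nspc-7 was 1314 and 1210 normalized counts in the control against 380 and 331 in the eggd-1 libraries. This was 3.55-fold lower, a log2 ratio of -1.83 with a spread between replicates of 0.118. The sum of the second cluster was 1120 and 1040 in the control and 1995 and 1639 in eggd-1, 1.68-fold higher (log2 ratio 0.75, spread 0.151). The sum of the third cluster was 710 and 637 in the control and 1656 and 1345 in eggd-1, 2.23-fold higher (log2 ratio 1.16, spread 0.169). In each cluster the 2 groups did not overlap, and each log2 ratio was larger than the spread between replicates.

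Ratios taken within a library need no scaling between libraries, and they gave the same picture. The first cluster had 1.17 and 1.16 times the counts of the second in the control libraries but 0.191 and 0.202 times in the eggd-1 libraries. Against the third cluster it had 1.85 and 1.90 times the counts in the control and 0.230 and 0.246 times in eggd-1. The first cluster therefore supplied 41.8% and 41.9% of all nspc counts in control worms but 9.44% and 9.97% in eggd-1. The share of the third cluster went from 22.6% and 22.1% to 41.1% and 40.6%. The second and the third clusters also differed between the genotypes in their balance, from 1.58 and 1.63 to 1.20 and 1.22. How many reads fit members of more than one cluster was not tested.

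Single members were then compared with DESeq2 on all rows of the table. A member is called higher or lower where its Benjamini-Hochberg adjusted p-value, taken over all 16773 rows that received one, was under 0.05. Of the 52 members, 5 had no count in any library, 7 had counts too low for an adjusted p-value and 40 were tested. Of these 40, 22 were called higher, 7 lower and 11 neither. Among all tested rows 39.1% were called, 18.6% higher and 20.4% lower. At the limit of 4-fold that the study used, 10 members were higher and 4 lower, beside 5.67% and 0.763% of all tested rows. Because the families were picked with this comparison known, nothing is read from these shares. The median log2 fold change over the tested members was 1.22 for nspa, 3.20 for nspb, 0.58 for nspc and 0.47 for nspe, against 0.00 over all tested rows.

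**Figure D2:**
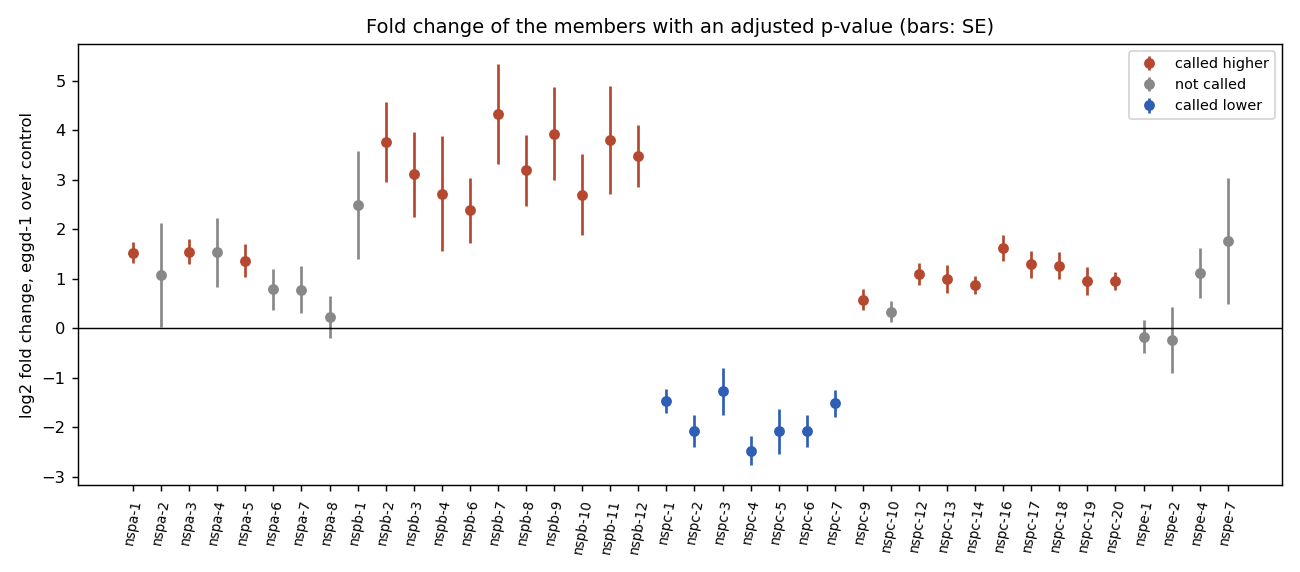
The log2 fold change of eggd-1 over control from DESeq2 for the 40 tested members, with bars of 1 SE and colours for the call. The nspb members lie between 2.38 and 4.33, the 7 members of the first nspc cluster between -2.47 and -1.28, and the other nspc members between 0.34 and 1.63.

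Of all tested rows 20.4% were called lower and 0.763% at least 4-fold lower, and on the X chromosome 10.1% and 0.776%. All 7 members of the first nspc cluster were called lower, 4 of them at least 4-fold. The largest decrease was in nspc-4, with 253 and 254 normalized counts in the control against 53.1 and 38.2 in eggd-1, a log2 fold change of -2.47 (SE 0.30). The next, nspc-5, had 85.8 and 81.1 in the control and 21.7 and 17.2 in eggd-1 (a log2 difference of -2.08, SE 0.46). The pair nspc-2 and nspc-6, whose counts were nearly equal, each fell by 2.08 on the log2 scale (SE 0.33). The decreases of nspc-1 (-1.47, SE 0.25), nspc-7 (-1.52, SE 0.27) and nspc-3 (-1.28, SE 0.47) were smaller. Both mutant libraries lay below both control libraries in all 7, an order found for 38.8% of all tested rows. The call of nspc-3, the least abundant of them, was lost in the fit with the replicate number as a block and without any 1 of the 4 libraries.

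**Figure D3:**
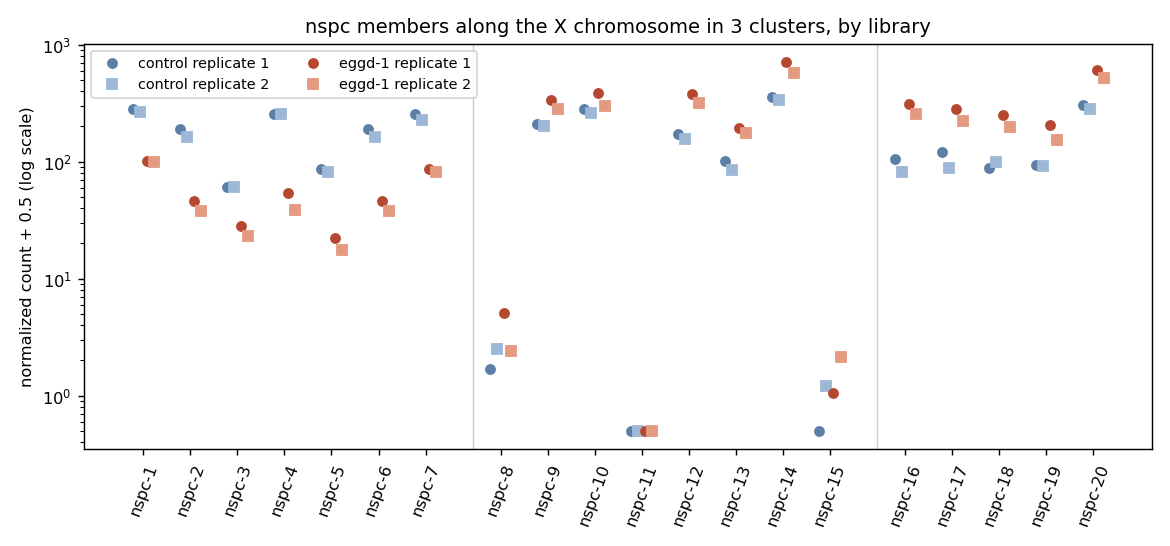
Normalized count plus 0.5 on a log scale for the 20 nspc genes in their order along the X chromosome, with grey lines between the 3 clusters and 1 point per library. In nspc-1 to nspc-7 the eggd-1 points lie below the control points, an order found for 38.8% of all tested rows. In nspc-9, nspc-10, nspc-12 to nspc-14 and nspc-16 to nspc-20 they lie above, as for 38.5% of all tested rows.

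In the second cluster 5 members were tested and 4 were called higher, none by 4-fold. Of all tested rows 18.6% were called higher, and of those on the X chromosome 20.6%. The most abundant nspc gene, nspc-14, had 359 and 338 normalized counts in the control against 704 and 567 in eggd-1 (a log2 difference of 0.87, SE 0.18). Its neighbours nspc-12 (1.10, SE 0.22) and nspc-13 (1.00, SE 0.28) rose by similar amounts. The pair nspc-9 and nspc-10, separated from the rest of the cluster by other genes and by the pseudogene nspc-11, had smaller values. For nspc-9 the values were 209 and 202 in the control and 335 and 279 in eggd-1 (a log2 difference of 0.58, SE 0.22). For nspc-10 they were 279 and 260 against 382 and 296, a log2 fold change of 0.34 (SE 0.21) that was not called. The pseudogene nspc-8 and the coding gene nspc-15 had at most 4.13 and 1.33 counts in any library, and nspc-11 had none.

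All 5 members of the third cluster were called higher, beside 18.6% of all tested rows, and again none by 4-fold. The largest increase was in nspc-16, with 105 and 80.2 normalized counts in the control against 312 and 255 in eggd-1 (a log2 difference of 1.63, SE 0.26). It was followed by nspc-17, with 121 and 87.8 against 283 and 222 (1.29, SE 0.27). The most abundant member, nspc-20, had 303 and 280 in the control and 607 and 519 in eggd-1 (0.95, SE 0.19). The remaining members were nspc-18 (1.26, SE 0.27) and nspc-19 (0.95, SE 0.29). Without eggd-1 replicate 1 the calls of nspc-17, nspc-18 and nspc-19 here, and of nspc-9, nspc-13 and nspc-14 in the second cluster, were lost. The call of nspc-9 was also lost under the replicate block and without any other library, that of nspc-13 without control replicate 2 or eggd-1 replicate 2, and that of nspc-19 without either control library.

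Levels per length placed the clusters in a similar range in control worms. Per kilobase of annotated exon, the control mean ran from 155 (nspc-3) to 703 (nspc-4) normalized counts in the first cluster. Among members averaging at least 10 normalized counts it ran from 206 (nspc-13) to 939 (nspc-14) in the second and from 209 (nspc-18) to 771 (nspc-20) in the third. In eggd-1 the range was 59.4 (nspc-5) to 254 (nspc-1) in the first cluster, 409 (nspc-13) to 1713 (nspc-14) in the second and 482 (nspc-19) to 1489 (nspc-20) in the third. The clusters thus overlapped in level per length in the control but the first did not overlap the other 2 in eggd-1. These values inherit the division of shared reads and the annotated exon lengths.

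Genes beside the nspc clusters were examined to see whether the difference extended past the nspc genes. Within 20 kb of the 3 clusters 20 other genes were tested, of which 1 was called higher and 3 lower, with none at 4-fold in either direction. On the whole X chromosome, 20.6% of 2321 tested rows were called higher and 10.1% lower, and 0.776% were at least 4-fold lower. Beside the first cluster, whose members all fell, 5 neighbours had log2 fold changes from -0.12 to 0.94. The only one called was sdha-1, which encodes a subunit of mitochondrial succinate dehydrogenase, and it was higher by 0.47 (SE 0.13). Beside the second cluster 2 of 7 neighbours were called lower and beside the third 1 of 8, opposite in direction to the tested nspc genes of those clusters. These neighbours were chosen by distance after the values of the nspc genes had been seen.

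**Figure D4:**
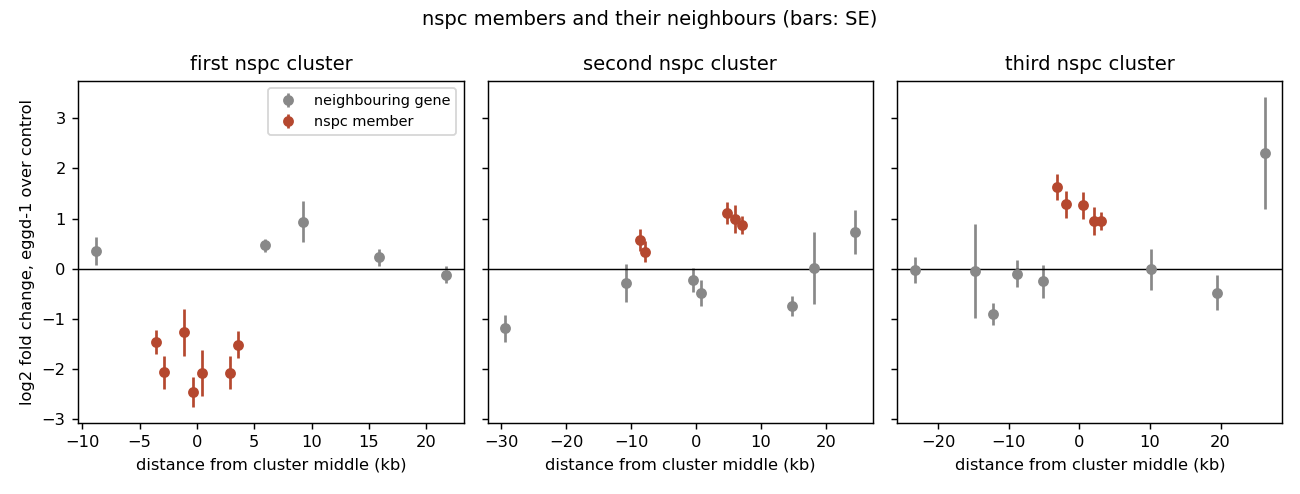
The log2 fold change of eggd-1 over control (bars of 1 SE) against the distance in kb from the middle of each nspc cluster, for nspc members and for other tested genes within 20 kb of the cluster. Beside the first cluster the neighbours run from -0.12 to 0.94 while the members lie at -1.28 or below.

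The nspb genes had the largest increases of the 4 families, from very low counts. The whole family had 41.4 and 54.2 counts in the control against 403 and 229 in the eggd-1 libraries. Of all tested rows 18.6% were called higher and 5.67% at least 4-fold higher. Of the 12 nspb members 11 were tested, and 10 were called higher, each at least 4-fold. The exceptions were nspb-1 (log2 fold change 2.49, SE 1.09), which was called with edgeR and with counts rounded down but not by the main test, and nspb-5, which had at most 2.57 counts in any library. In all 11 tested members both eggd-1 libraries lay above both control libraries, an order found for 38.5% of all tested rows. Without eggd-1 replicate 1, the library with the higher nspb counts, 9 of the 10 received no adjusted p-value and only nspb-12 was still tested and called. The call of nspb-4 was lost with library-total factors, with counts rounded down and with the replicate number as a block. That of nspb-7 was lost without eggd-1 replicate 2 and that of nspb-10 without either control library. Every called member kept its direction in all of these.

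The increase was also present in the nspb members whose counts were whole in every library and so showed no trace of divided reads. The most abundant member, nspb-12, had 7.09 and 4.29 normalized counts in the control against 70.7 and 52.6 in eggd-1 (a log2 difference of 3.48, SE 0.63). The gene nspb-6 had 8.10 and 8.58 against 57.4 and 29.4 (2.38, SE 0.65), and nspb-8 had 6.07 and 3.57 against 53.0 and 33.0 (3.20, SE 0.72). The last of the 4 members with whole counts, nspb-11, had 4 counts over both control libraries and 40 over both eggd-1 libraries, a ratio of 13.9 after scaling for depth. Its 95% exact interval, 5.01 to 53.3, covers counting error only and not the spread between replicates, which had 29 and 11 counts in eggd-1. The summed log2 ratio of these 4 genes was 3.06, against 3.17 for all 12. They lie on 3 chromosomes.

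The clustered nspb genes gave values of the same order. The largest fitted change was in nspb-7 on chromosome II, with 0.33 and 2.86 normalized counts in the control against 38.7 and 25.3 in eggd-1 (a log2 difference of 4.33, SE 1.01). At such counts the fitted value has little precision, and it ran from 3.48 to 7.42 over the alternatives tried. Its neighbour nspb-9 had 1.01 and 2.86 against 35.9 and 26.9 (3.93, SE 0.94). On chromosome IV, nspb-2 had 3.68 and 2.21 in the control and 51.1 and 30.2 in eggd-1 (3.77, SE 0.81). Over the 5 members of that cluster, the tested ones ranged from 2.49 to 3.77. Beside the chromosome II cluster 3 of 13 tested genes within 20 kb were called higher and 1 lower. Beside the chromosome IV cluster 6 of 15 were called higher and 3 lower. Among all tested rows 18.6% were called higher and 20.4% lower, and 5.67% were at least 4-fold higher. The neighbours higher by at least 4-fold were both on chromosome II, catp-4 (2.44, SE 0.21), which encodes a P-type ATPase subunit, and WBGene00007249 (2.62, SE 0.78). In eggd-1 the level per kilobase of exon was 44.0 to 157 for the tested nspb genes, below the 409 or more of the tested nspc genes in the second and the third clusters.

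**Figure D5:**
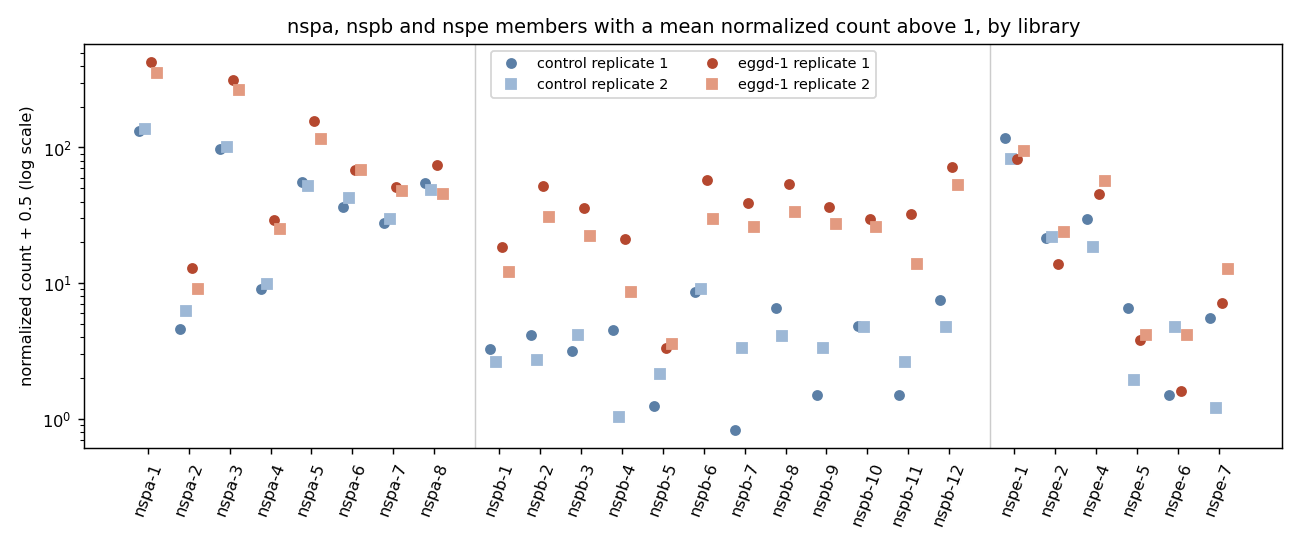
Normalized count plus 0.5 on a log scale for the nspa, nspb and nspe members with a mean normalized count above 1, with 1 point per library. The eggd-1 points of nspb-1 to nspb-12 lie above the control points, an order found for 38.5% of all tested rows. Those of nspa-8 overlap the control points, and nspe shows no common direction.

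All 7 nspa genes of the chromosome V repeat had higher values in both eggd-1 libraries than in both control libraries. This order was found for 38.5% of all tested rows. Of the 7 genes 3 were called higher, beside 18.6% of all tested rows. The most abundant of the 7 was nspa-1. It had 132 and 137 normalized counts in the control against 423 and 354 in eggd-1 (a log2 difference of 1.53, SE 0.22). Its counterpart nspa-3, 6368 bases away, had 96.7 and 101 against 315 and 265 (1.55, SE 0.25). For nspa-5 the values were 54.8 and 51.5 against 156 and 116 (1.36, SE 0.33). The counterpart of nspa-5, nspa-4, had a like change at lower counts, 8.64 and 9.42 against 28.8 and 24.7 (1.53, SE 0.71), and was not called. The remaining pair, nspa-6 and nspa-7, both had a log2 fold change of 0.78 (SE 0.41 and 0.48) and were not called. The last gene, nspa-2, had 1.07 (SE 1.05). Within 20 kb of the repeat 1 of 10 tested genes was called higher and 2 lower, beside 18.6% and 20.4% of all tested rows. With edgeR nspa-4, nspa-6 and nspa-7 were called higher, and the call of nspa-5 was lost without eggd-1 replicate 1. Members that lie 6368 bases apart thus had log2 fold changes that differed by less than their SE. How many reads they share was not tested.

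Outside the repeat, nspa-8 (chromosome V, 14826948 to 14827052) showed no difference beyond its spread. It had 54 and 48.4 normalized counts in the control against 73.7 and 45.2 in eggd-1 (a log2 difference of 0.23, SE 0.42), and the sign turned without eggd-1 replicate 1. Both nspa-8 and nspa-1, which was called higher, belong to the Spermatogenic class of the deposited table, in which (piRNA rows left out) 1049 of 2316 tested rows were called higher and 108 lower with a median log2 fold change of 1.07. The genes nspa-9 (X) and nspa-10 (V) had no count, and the pseudogenes nspa-11 and nspa-12 had at most 1.

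No nspe member was called. The most abundant, nspe-1, had 117 and 81.1 normalized counts in the control against 82.3 and 93.0 in eggd-1, which overlap (log2 fold change -0.17, SE 0.34). For nspe-2 the values were 21.1 and 21.4 against 13.3 and 23.2 (-0.23, SE 0.67). By contrast nspe-4, whose counts were whole in every library, had 29.4 and 17.9 against 45.3 and 56.3 (1.12, SE 0.51), with groups that did not overlap. It was called by edgeR and with a filter on low counts but not by the main test. The same held for nspe-7 with edgeR, at 5.06 and 0.71 against 6.63 and 12.2 (1.77, SE 1.27). Counts of nspe-5 and nspe-6 did not exceed 6, and nspe-3 and nspe-8 had none. Within 20 kb of the nspe genes 1 of 6 tested genes was called, beside 39.1% of all tested rows. The called gene, WBGene00012595, was higher by 2.73 on the log2 scale (SE 0.28). Leaving out the members with fractional counts, which removes nspe-1 and nspe-2, moved the log2 ratio of the family sum from 0.17 to 1.01.

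The sperm peptide family nspd was set beside these families. Its sum was 554 and 475 normalized counts in the control against 1011 and 860 in eggd-1, 1.82-fold higher. Of its 10 tested members 5 were called higher and none lower, beside 18.6% and 20.4% of all tested rows. Within a library the nspb counts were 0.0757 and 0.0815 times the nspd counts in the control and 0.440 and 0.326 times in eggd-1. The nspa counts were 0.748 and 0.891 times the nspd counts in the control and 1.12 and 1.08 times in eggd-1. Relative to nspd, nspb was thus higher in eggd-1 by 2.27 and nspa by 0.43 on the log2 scale. The nspe sum overlapped between the groups, but its ratio to the nspd counts went the other way. It was 0.324 and 0.267 in the control and 0.150 and 0.223 in eggd-1, a log2 difference of -0.68. In none of these 3 ratios did the groups overlap.

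Markers of several cell types were also compared between these libraries, in which 18.6% of all tested rows were called higher and 20.4% lower. Of 12 sperm markers 11 were tested and 9 were called higher, and their summed normalized count was 633 and 842 in the control against 3021 and 2642 in eggd-1. All 5 markers of the pharynx were called higher, with sums of 9131 and 11665 against 33049 and 33308. Of the 7 epidermis and cuticle markers 4 were called higher, and of the 9 oocyte markers 3. Among intestine markers 5 of 7 were called higher and 1 lower, among body muscle markers 4 of 6 higher, among neuron markers 3 of 6 higher and 1 lower, and among early embryo markers 1 of 6 lower. The early embryo list named 8 genes, of which 7 were in the deposited table. Among the genes found there, none of the 8 lists given so far held one at 0 in all libraries. Of 8 markers of the male soma 4 were tested, 1 was called higher and 1 lower, and srj-54 was at 0 throughout, with sums of 71.9 and 77.5 against 88.4 and 82.0. The part of these cell types in the values of the nsp genes was not tested. In RNA from whole worms, a change in the number of cells of a type and a change in RNA per cell cannot be told apart.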

How the data were processed

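RNA from 2 control and 2 eggd-1 libraries was analysed, grouped by their titles. Adapters were removed by the authors with TrimGalore, and STAR placed each read at up to 10 positions in WormBase WS279. After removal of orphan reads with SAMtools, featureCounts counted by strand and divided a read among its places, so that the deposited table holds expected counts without normalization. It also has 7 columns that belong to no sample here, which were left out.

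Expected counts were rounded to whole numbers, and rows with at least 1 count entered DESeq2 1.42.0 (R 4.3.3), the tool the authors named (Wald test, Benjamini-Hochberg adjustment over all tested rows, called under 0.05). The test was checked on simulated counts, with changes seeded only in rows of higher mean count than any nspb member had. Sums used unrounded counts divided by DESeq2 size factors. Alternatives were edgeR 4.0.16 (quasi-likelihood, TMM), library-total factors, a filter of at least 10 counts in 2 libraries, counts rounded down, the replicate number as a block, and each library left out, where the lone library left in a group is assumed to vary like the other group. Positions and exon lengths were read from Ensembl 115 for WBcel235, matched by gene identifier to 99.98% of gene rows, and the symbols are those of the deposited table. Per family, the 4 most abundant members and the 2 with the largest change in each direction among members averaging 10 or more normalized counts were named with values, and others for their place or shared counts. Members, lists and marker sets were chosen with earlier results of these data known, and the nspc clusters and neighbouring genes after the values had been seen. No sequences were used here.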

Additional observations from a re-analysis of the deposited data

How the results depend on the processing

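Of the 29 members called, all kept their direction under the 9 alternatives, 12 kept the call in each of them, 11 lost it under at least 1, and 6 nspb members lost it under none but received no adjusted p-value under at least 1. Of the 11, nspb-4, nspc-3 and nspc-9 lost it under an alternative that kept all 4 libraries. Leaving out a library mattered most. The 22 members called higher became 6 to 18, the 10 called at least 4-fold higher 1 to 8, the 7 called lower 6, and the 4 called at least 4-fold lower 1 to 4. The lowest counts of higher members, 6 and 1, came without eggd-1 replicate 1, where 27 members received an adjusted p-value, 9 called nspb members being among those without one, and 8.46% of all tested rows were called higher. At 4-fold or more, 2 members were lower without control replicate 1, and 5 were higher and 1 lower without eggd-1 replicate 2. In the summed log2 ratios leaving out a library gave 1.15 to 1.43 for nspa, 2.80 to 3.46 for nspb, 0.14 to 0.42 for nspc and -0.060 to 0.44 for nspe, whose sign turned without control replicate 2 (-0.060) and without eggd-1 replicate 2 (-0.01). For the nspc clusters, added after seeing the data, it gave -1.93 to -1.73, 0.60 to 0.89 and 1.00 to 1.30. The nspe sum over members with whole counts was 1.01, and for nspa and nspc that setting gave no value for want of such members with counts in every library. With edgeR 28 members were higher and 7 lower. The replicate numbers share no known source, and the deviations of same-numbered libraries correlated at -0.03. The replicate block gave 20 higher and 6 lower.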
